A study of Parasteatoda tepidariorum with 2 samples.

Results

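This account concerns 100 genes that were enriched in Pt-twist-positive nuclei of the stage-7 embryo of the spider Parasteatoda tepidariorum, and follows them back to nuclei of late stage 5 and across to whole cells of stage 7. Twist is a basic helix-loop-helix transcription factor that in Drosophila is required for the mesoderm, the germ layer that gives rise to muscle and related tissue. The study lists Pt-twist as a marker of the peripheral mesoderm at late stage 5 and of the mesoderm at stage 7. For the central mesoderm of late stage 5 it lists Pt-Delta, also a marker of peripheral endoderm. Nuclei of the central mesoderm can therefore lack Pt-twist at late stage 5. In the study some stage-7 mesoderm clusters were relatively similar to the peripheral mesoderm and others to the central. Mesoderm formation in many animals uses fibroblast growth factor (FGF) receptors, which signal through Ras and the MAP kinase cascade to ETS transcription factors, together with integrins and regulators of the actin cytoskeleton that serve cell movement.

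The series held 3 libraries, each from pooled wild-type whole embryos without treatment and each made once on a microwell platform that tags single molecules: stage-7 nuclei from 20 embryos, stage-7 cells from 15 embryos and nuclei of late stage 5 from 20 embryos. Stage 5 is the germ disc and stage 7 the early germ band. The study describes the stage-7 embryos used for cells as slightly younger than those used for nuclei, and from a different egg sac. The late stage-5 library came from an earlier series of the same laboratory and was filtered again by the authors. The filtered matrices held 6239 stage-7 nuclei (median 10452 molecules), 865 stage-7 cells (9159) and 4820 late stage-5 nuclei (5413). With 1 library per condition there was no replicate, so no test was made, and stage and library cannot be told apart. Intervals are exact 95% Poisson intervals and cover counting error only.

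Members were chosen in the stage-7 nuclei. The group was the 316 nuclei with 3 or more molecules of Pt-twist (LOC107440133) and at most 4 of At_eW_012_A08 (LOC107451427). In stage-7 embryos the study lists At_eW_012_A08 as a marker of endoderm and extraembryonic cells. The rest was the 5045 nuclei without Pt-twist. Of 5569 genes with 100 or more molecules in the group, Pt-twist set aside, the 100 with the highest ratio of group to rest were kept, out of 20315 genes in the series. A ratio here is the group level divided by the rest level, each in molecules per 10000 with 0.05 added. The stage-7 nucleus ratios, from 1.64 to 26.4, therefore only describe the choice. The last 3 places went to LOC107457360 (ratio 1.67), LOC107436800 (1.65) and LOC107436424, a plasma membrane calcium pump (1.64), and the first 3 genes left out, LOC107445362, LOC107440831 and LOC107441003, stood at 1.63, 1.63 and 1.62. In that library 77 members had a ratio of 2 or more, which were by construction all of the genes past that value (1.38% of the 5569), and no member had a ratio of 0.5 or less, where 1.98% of those genes lay. The same Pt-twist rule gave 75 stage-7 cells against 667 without Pt-twist. At late stage 5 only 20 nuclei had 3 or more Pt-twist molecules, so the 53 with 2 or more formed the group there, against 4689 without any.

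Pt-twist itself stood at similar levels in the 3 groups, at 3.83 per 10000 in stage-7 nuclei, 4.26 in late stage-5 nuclei and 3.83 in stage-7 cells, a quantity that the rule sets. The groups were deeper than the rest at stage 7 (medians of 13319 against 10285 molecules in nuclei and 13251 against 8504 in cells) and nearly equal at late stage 5 (5691 against 5402). In stage-7 nuclei the 6 ectoderm markers lay at 0.127 to 0.304 of the rest and the 5 endoderm and extraembryonic markers at 0.205 to 0.470. Of 4 genes that the study stained along the mesoderm from anterior to posterior, LOC107456536 (ratio 4.41), LOC107449287 (8.26) and LOC107452693 (7.67) were high, whereas LOC107457003 had 3 molecules in the group and a ratio of 0.853, so the group held hardly any signal of that marker. In stage-7 cells the 6 ectoderm markers lay at 0.124 to 0.456 and the 5 endoderm and extraembryonic markers at 0.418 to 0.889. At late stage 5 the ectoderm markers Pt-otd (5.03 against 4.33 per 10000) and Pt-hh (8.91 against 6.97) were not lower in the group than in the rest. Pt-AP2-A (0.930 against 3.96), Pt-gas1 (1 molecule in the group) and Pt-msx1 (3 molecules) were lower. Pt-six3-1 had no molecule in the group. Its level in the rest, 0.0423, was below the 0.0962 that 3 molecules give in the group, so its direction was not detectable. The part of these marker levels in the results below was not tested. The endoderm and extraembryonic markers lay there between 0.129 (LOC107436131) and 1.54 (LOC107439300, 3 molecules in the group). Few barcode sequences recurred between libraries: 33 between the sets of nuclei, 5 between late stage-5 nuclei and cells and 6 between the stage-7 libraries.

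At late stage 5, 48 of the 99 members present in the matrix were already 2-fold or more higher in the Pt-twist group, 43 lay between and 8 were 2-fold or more lower. The median member ratio was 1.99. Over all 11100 genes with 100 or more molecules in the library the median was 0.967, 2.17% were 2-fold or more higher and 8.06% were 2-fold or more lower. LOC107455062 was not in that matrix, and 9 members had under 100 molecules there. In the stage-7 cells, the other library that the rule did not use, 81 of the 100 members were 2-fold or more higher and 1 was 2-fold or more lower, with a median ratio of 3.24, beside 1.43% and 2.91% of 6088 genes. Those genes had 100 or more molecules in the cells. Of the members 63 did, and 54 of these were 2-fold or more higher. A total of 42 members passed 2-fold in both of these libraries, 6 at late stage 5 alone, 39 in stage-7 cells alone and 13 in neither. Among the first 25 members 16 passed at late stage 5 and 24 in cells, and among the last 25 the counts were 6 and 14.

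**Figure D1:**
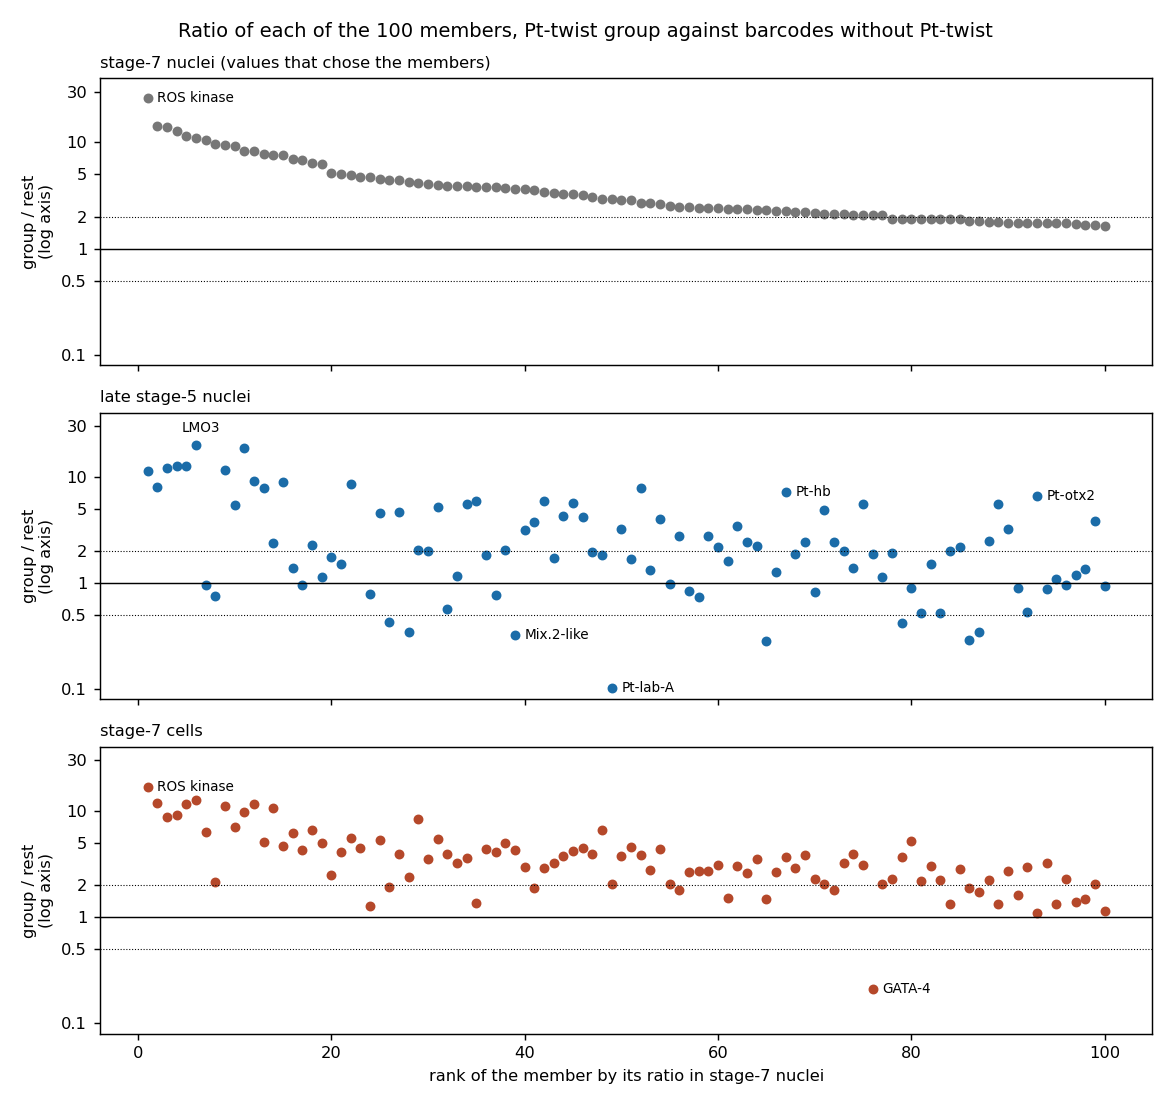
Ratio of each member (Pt-twist group over barcodes without Pt-twist, log axis) against its rank in stage-7 nuclei, for stage-7 nuclei (top), late stage-5 nuclei (middle) and stage-7 cells (bottom), with dotted lines at 2 and 0.5. The ratios at late stage 5 ran from 0.103 (Pt-lab-A) to 19.8 (LMO3), and in stage-7 cells 1 member, GATA-4, lay below 1.

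The 3 members with the highest ratios at late stage 5 were LMO3 and 2 genes without a named product, LOC107451770 and LOC107438548. LOC107436092 encodes LIM domain only protein 3 (LMO3), a LIM-domain adaptor of transcription complexes. It stood at 8.98 per 10000 (7.96 to 10.1) in the late stage-5 group and 0.405 in the rest, a ratio of 19.8. In stage-7 nuclei it stood at 4.21 against 0.335 and in stage-7 cells at 1.43 against 0.0657. LOC107451770, whose product is uncharacterized, had the highest group level of all members at late stage 5, 35.9 per 10000 (33.8 to 38.0) against 1.87 in the rest, with 7.97 against 0.918 in stage-7 nuclei and 3.79 against 0.344 in cells. Its molecules were found in 92.5% of the late stage-5 group and 18.4% of the rest. LOC107438548 had ratios of 12.8 in stage-7 nuclei, 12.5 at late stage 5 and 9.15 in cells. Further genes without a named product among the 10 highest at late stage 5 were LOC107436289 (8.87) and LOC107454216 (8.58), and the other 5 of the 10 were integrin alpha-PS2, both FGF receptors, ROS kinase and the Sox-14-like gene. Groups and rest of LMO3 and LOC107451770 were far apart relative to the counting intervals in each of the 3 libraries.

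Both FGF receptors were members and were high in each library. Pt-FGFRa (LOC107437526) stood at 12.7 per 10000 (11.5 to 14) in the late stage-5 group and 1.00 in the rest, at 7.64 and 0.504 in stage-7 nuclei, and at 1.69 and 0.147 in stage-7 cells. Pt-FGFRb (LOC107438841) stood at 22.1 (20.4 to 23.8) and 1.84 at late stage 5, at 11.0 and 1.12 in stage-7 nuclei, and at 4.44 and 0.355 in cells. Pt-FGFRb was found in 51 of the 53 late stage-5 group nuclei and Pt-FGFRa in 49. The gene for a ligand, Pt-fgf8 (LOC107453597), which is not a member, lay on the other side with ratios of 0.0696 at late stage 5, 0.117 in stage-7 nuclei and 0.197 in cells. The receptors were thus high where the ligand gene was low, within every library.

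Several other receptors and surface proteins among the members were also higher in the group, though not all by 2-fold in each library. Genes of these classes outside the members varied. At late stage 5 integrin alpha-PS1 (LOC107443562) had a ratio of 0.319 and an epidermal growth factor receptor (LOC107438758) 0.483. The roundabout gene LOC107447205 lay at 0.993 and the ephrin receptor Pt-eph (LOC107451211) at 2.49. LOC107441450 encodes the receptor tyrosine kinase ROS, the family of Drosophila sevenless, and ranked first in both stage-7 libraries with 3.52 per 10000 against 0.0854 in nuclei and 1.80 against 0.0610 in cells, while late stage 5 gave 2.24 (1.75 to 2.84) against 0.154. Roundabout homolog 1 (LOC107438411), a receptor for Slit guidance proteins, stood at 0.962 against 0.0765 at late stage 5 and at 1.73 against 0.0743 in stage-7 nuclei. Integrin alpha-PS2 (LOC107437681), which in Drosophila serves muscle attachment, stood at 2.05 (1.58 to 2.62) against 0.118 at late stage 5, 1.29 against 0.0666 in stage-7 nuclei and 0.983 against 0.0391 in cells. Carboxypeptidase M (LOC107448812) reached only 13 molecules in the late stage-5 group, at a ratio of 5.42. The tetraspanin CD9 antigen (LOC107450121, ratio 4.26 at late stage 5), the calcium channel CALHM6 (LOC107437962, 5.59) and a serotonin transporter (LOC107443894, 5.89) were further members past 2-fold at that stage. Dystroglycan (LOC107454341), a receptor for laminin, lay at 1.99 there and at 3.25 in cells. Four-jointed box protein 1 (LOC107453922), a Golgi kinase family in Drosophila planar polarity, lay at 1.99 and 1.34. The chloride channel bestrophin-2 (LOC107455216) parted by library, with 5.54 at late stage 5 and 1.33 in cells, and the calcium pump LOC107436424 (1.15) and LOC107455340 (1.34) were the other members lowest in cells.

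Among regulators of the actin cytoskeleton and cell movement, LOC107436524 (APBB1IP) and LOC107449707 (MIG-10) belong to a family of adaptors that couple Ras-type GTPases to actin, and MIG-10 is needed for neuron migration in Caenorhabditis elegans. APBB1IP was among the most abundant members at late stage 5, at 19.8 per 10000 (18.2 to 21.4) against 2.46, and lower in stage-7 nuclei at 2.86 against 1.02. MIG-10 had ratios of 5.68 at late stage 5, 3.25 in stage-7 nuclei and 4.20 in cells. Pt-fascin (LOC107440147), an actin-bundling protein, stood at 4.65 against 1.12 at late stage 5, 3.60 against 1.35 in stage-7 nuclei and 3.93 against 0.860 in cells. LOC107445483 is named for trapped in endoderm-1, a Drosophila G protein-coupled receptor needed for germ cells to leave the gut. It stood at 9.20 (8.17 to 10.3) against 1.14 at late stage 5 and at 1.03 against 0.0885 in stage-7 nuclei.

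The next genes, regulators of Ras and MAP kinases and ETS factors, were picked out after their values were seen and do not form a tested group. Spred2 (LOC107453447), a negative regulator of Ras signalling, had ratios of 2.18 at late stage 5, 2.41 in stage-7 nuclei and 3.12 in cells. The dual specificity phosphatases, which remove phosphate from MAP kinases, comprised LOC107443762 (DUSP7, 4.84 at late stage 5), LOC107442224 (DUSP1, 3.41) and LOC107451213 (DUSP10, 1.67). In cells the same 3 stood at 2.05, 3.06 and 4.55. Of the ETS factors, Pt-ets1 (LOC107451344) stood at 18.5 per 10000 (17.0 to 20.0) against 3.54 at late stage 5, 4.85 against 1.18 in stage-7 nuclei and 3.29 against 0.563 in cells. The ETS repressor pokkuri (LOC107440448) had ratios of 2.77 and 2.73 at late stage 5 and in cells. A further ETS gene named C-ets-1 (LOC107447162) had 10 molecules in the late stage-5 group, a ratio of 0.518, and 2.22 in cells. Other ETS genes lay lower: Elk-1 (LOC107440619), not a member, had ratios of 0.221 at late stage 5, 0.291 in stage-7 nuclei and 0.186 in cells, and Pt-ets4 (LOC107451717) had 0.653, 0.434 and 0.833. Of these 5 ETS genes 2 were 2-fold or more higher and 1 was 2-fold or more lower at late stage 5.

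The transcription factors among the members divided by stage. Pt-hb (LOC107455742), the spider hunchback and a gap gene in insects, was found in all 53 nuclei of the late stage-5 group, at 26.4 per 10000 (24.6 to 28.3) against 3.61 in the rest, and stood at 3.91 against 1.72 in stage-7 nuclei and 2.66 against 0.688 in cells. Pt-otx2 (LOC107457564), of the orthodenticle family, stood at 3.01 (2.44 to 3.69) against 0.415 at late stage 5, at 0.270 against 0.134 in stage-7 nuclei and at 0.122 against 0.105 in cells. The odd-skipped relative osr-B (LOC107451631) stood at 5.42 against 0.868 at late stage 5 and 1.26 against 0.332 in stage-7 nuclei. The Sox-14-like gene (LOC107449287) had ratios of 9.06, 8.26 and 11.6 at late stage 5, in stage-7 nuclei and in cells, although its 18 molecules in the late stage-5 group came from 12 nuclei. The homeobox gene Pt-gbx (LOC107453260, 2.40), the paired-type Pt-prd2 (LOC107445228, 2.41), the Notch target family member HES-1-A (LOC107444253, 2.40) and the repressor ZEB2 (LOC107446990, 5.55) also passed 2-fold at late stage 5, whereas Sox-13 (LOC107438641) lay at 1.38.

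A smaller set was low in the Pt-twist group at late stage 5 and above the rest at stage 7, though not always by 2-fold. For Pt-ci the stage-7 ratios were 1.80 in nuclei and 1.74 in cells, and for the actin gene LOC107443493 the cell ratio was 1.90. Pt-lab-A (LOC107455686), the Hox gene labial, had 3 molecules in the late stage-5 group, 0.0962 per 10000 (0.0198 to 0.281), against 1.37 in the rest, a ratio of 0.103, which was 0.500 with a Pt-twist minimum of 1. In stage-7 nuclei it stood at 1.38 (1.26 to 1.49) against 0.438 and in stage-7 cells at 0.192 against 0.0688. The cell ratio of Pt-lab-A, 2.04, was 1.77 with a Pt-twist minimum of 1 and 1.22 with 0.5 added. The Mix.2-like homeobox gene (LOC107440707), of a family active in mesendoderm in frogs, had 5 molecules in the late stage-5 group, all in 1 nucleus, at 0.160 (0.0521 to 0.374) against 0.598. Its late stage-5 ratio of 0.325 was 0.576 with a Pt-twist minimum of 1 and 0.601 with 0.5 added, neither of which was 2-fold lower. In stage-7 nuclei it stood at 1.67 against 0.419 and in cells at 0.577 against 0.0954. Pt-ci (LOC107438714), the transcription factor of Hedgehog signalling, stood at 2.34 (1.83 to 2.94) against 6.93 at late stage 5, at 4.65 against 2.56 in stage-7 nuclei and at 2.90 against 1.65 in cells. An actin gene (LOC107443493), from a family of near-identical copies whose reads the counting could divide, stood at 0.224 against 0.905 at late stage 5, 10.7 against 5.81 in stage-7 nuclei and 20.3 against 10.6 in cells. When the rest was limited to nuclei with at most 4 molecules of At_eW_012_A08, the late stage-5 ratio of this actin gene was 0.929, and with 0.5 added it was 0.516. LOC107455688 (0.287) and LOC107445416 (0.418) were also lower at late stage 5. The other 2 of the 8, LOC107449755 (0.428) and LOC107439686 (0.349), had no molecule in the late stage-5 group.

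For 8 members no molecule was counted in the late stage-5 group, which allows a level of up to 0.0962 per 10000 (3 molecules). The rest lay below that limit for each of these 8, so their direction at late stage 5 was not detectable at this depth. They included LOC107450676, which had rank 7 in stage-7 nuclei (0.582 per 10000 against 0.0106) and 7 molecules in the whole late stage-5 library, and Pt-pb-A (LOC107455689), the Hox gene proboscipedia. With these members placed at the limit the median late stage-5 ratio was 2.18 and 6 members were 2-fold or more lower.

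Between late stage 5 and stage 7 the members differed in both directions within Pt-twist nuclei. Of 99 members 32 were 2-fold or more higher at stage 7, 27 were 2-fold or more lower and 40 lay between, with a median ratio of 1.07. Over 5870 genes with 100 or more molecules in both groups together the median was 0.812, 16.5% were 2-fold or more higher and 22.2% were 2-fold or more lower. The members were chosen for a high level in the same stage-7 group, which favours higher values at stage 7, so these counts describe the members and nothing is read from them against the background. The largest upward difference was that of the actin gene LOC107443493, from 0.224 to 10.7 per 10000. Pt-lab-A and the Mix.2-like gene, described above, had stage-7 to late stage-5 ratios of 9.75 and 8.17, and LOC107454114, with rank 8 in stage-7 nuclei, had 1 molecule in the late stage-5 group and 0.718 per 10000 at stage 7. Neurotactin (LOC107441543), a Drosophila cell adhesion protein, went from 6.19 (5.35 to 7.13) to 21.4, the highest level of any member at stage 7, and the gap-junction protein innexin inx2 (LOC107449275) from 3.56 to 18.6. LOC107439686, without a molecule in the late stage-5 group, was at least 6.61-fold higher at stage 7, and LOC107450676 at least 6.05-fold. The largest downward differences were those of Pt-otx2 (3.01 to 0.270), trapped in endoderm-1 (9.20 to 1.03), APBB1IP (19.8 to 2.86), Pt-hb (26.4 to 3.91) and LOC107451770 (35.9 to 7.97). Pt-FGFRb went from 22.1 to 11.0 and Pt-FGFRa from 12.7 to 7.64. The 2 libraries of nuclei differ in stage, in depth and in preparation at once, and the part of each in these changes cannot be told apart. By the study's marker list Pt-twist stands for the peripheral mesoderm alone at late stage 5 and for the mesoderm more widely at stage 7. The 2 groups may thus cover different parts of the mesoderm, which was not tested.

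**Figure D2:**
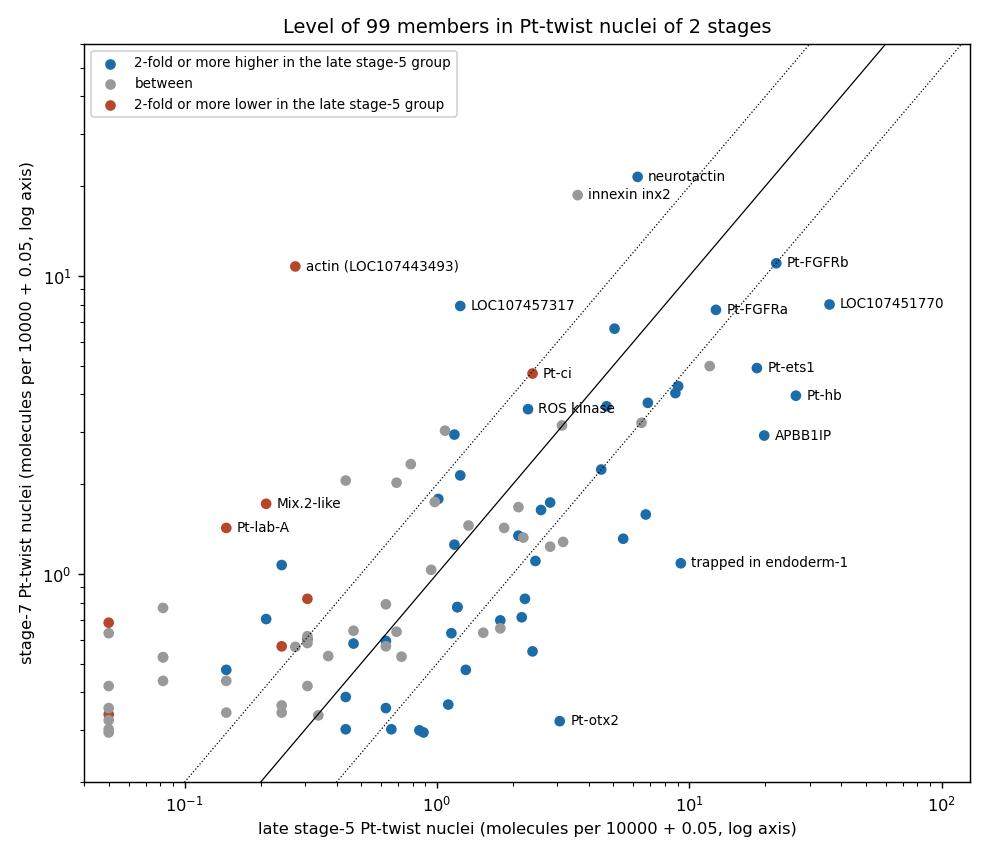
Level of each of 99 members in the late stage-5 Pt-twist nuclei (horizontal) and in the stage-7 Pt-twist nuclei (vertical), in molecules per 10000 plus 0.05 on log axes, with the line of equality, dotted lines at 2-fold and colour for the ratio of group to rest at late stage 5, which shares its group level with the horizontal axis. Pt-hb (26.4 and 3.91) lies below the line, while the actin gene (0.224 and 10.7) lies highest above it.

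To ask where else the members were transcribed at late stage 5, nuclei without Pt-twist were grouped by 3 or more molecules of 1 of 11 further markers or 5 or more of At_eW_012_A08, which gave 12 groups of 30 to 1224 nuclei. Of the 90 members with 100 or more molecules, 40 had their highest level in the Pt-twist group, beside 16.3% of 11100 genes. The next most frequent were the At_eW_012_A08 group with 16 members, the Pt-ets4 group with 11 and the Pt-aslH group with 8. A share over all genes was taken for the Pt-twist group alone. The Pt-ets4 and Pt-aslH groups held only 78 and 30 nuclei, so these counts are not read as a trait of the members. A nucleus could be in more than 1 group, and 81 of the 312 At_eW_012_A08 nuclei were also Pt-Delta nuclei. Pt-ets4 marks the cumulus, a group of migrating cells beneath the germ disc. Pt-Delta, which the study lists for central mesoderm and peripheral endoderm, gave a group of 562 nuclei, and no member was highest there. The FGF receptors, ROS kinase, integrin alpha-PS2, LMO3 and Pt-ets1 were highest in the Pt-twist group, and the next highest groups stood at 1.77 per 10000 for Pt-FGFRa, 1.60 for LMO3 and 0.373 for the integrin. For Pt-FGFRb the Pt-ets4 nuclei stood at 9.06, and for LOC107451770 at 13.1.

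Members shared with the At_eW_012_A08 group stood out in this comparison. At this stage the study lists At_eW_012_A08 for endoderm and for cumulus cells, and Pt-ets4 for cumulus cells. The At_eW_012_A08 and Pt-ets4 groups can therefore hold the same cells, and their overlap is not given here. A high level in the At_eW_012_A08 nuclei is thus not assigned to endoderm alone. GATA-4 (LOC107439682) stood at 11.7 per 10000 (11.3 to 12.2) in the At_eW_012_A08 nuclei, 5.62 in the Pt-ets4 nuclei and 2.76 (2.21 to 3.41) in the Pt-twist group. Neurotactin (LOC107441543) stood at 13.8 (13.3 to 14.2) in the At_eW_012_A08 nuclei against 6.19 in the Pt-twist group. Pt-Delta2 (LOC107438011), a Notch ligand, stood at 8.64 against 3.11, and innexin inx2 (LOC107449275) at 8.82 against 3.56. ZEB2 (LOC107446990) was level, at 0.813 (0.702 to 0.935) and 0.802 (0.519 to 1.18). The actin gene LOC107443493 was highest in the Pt-ets4 nuclei at 9.0 and stood at 7.43 in the At_eW_012_A08 nuclei. Of the other members that were low in the Pt-twist group, 4 were highest in groups of ectoderm or late stage-5 markers, among them Pt-lab-A (LOC107455686) at 3.60 in Pt-otd and 2.79 in Pt-hh nuclei, Pt-ci (LOC107438714) at 10.2 in Pt-rhomboid nuclei, and the Mix.2-like gene (LOC107440707) at 1.66 in Pt-msx1 nuclei. LOC107445416, like the actin gene, was highest in the Pt-ets4 nuclei, at 2.23.

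**Figure D3:**
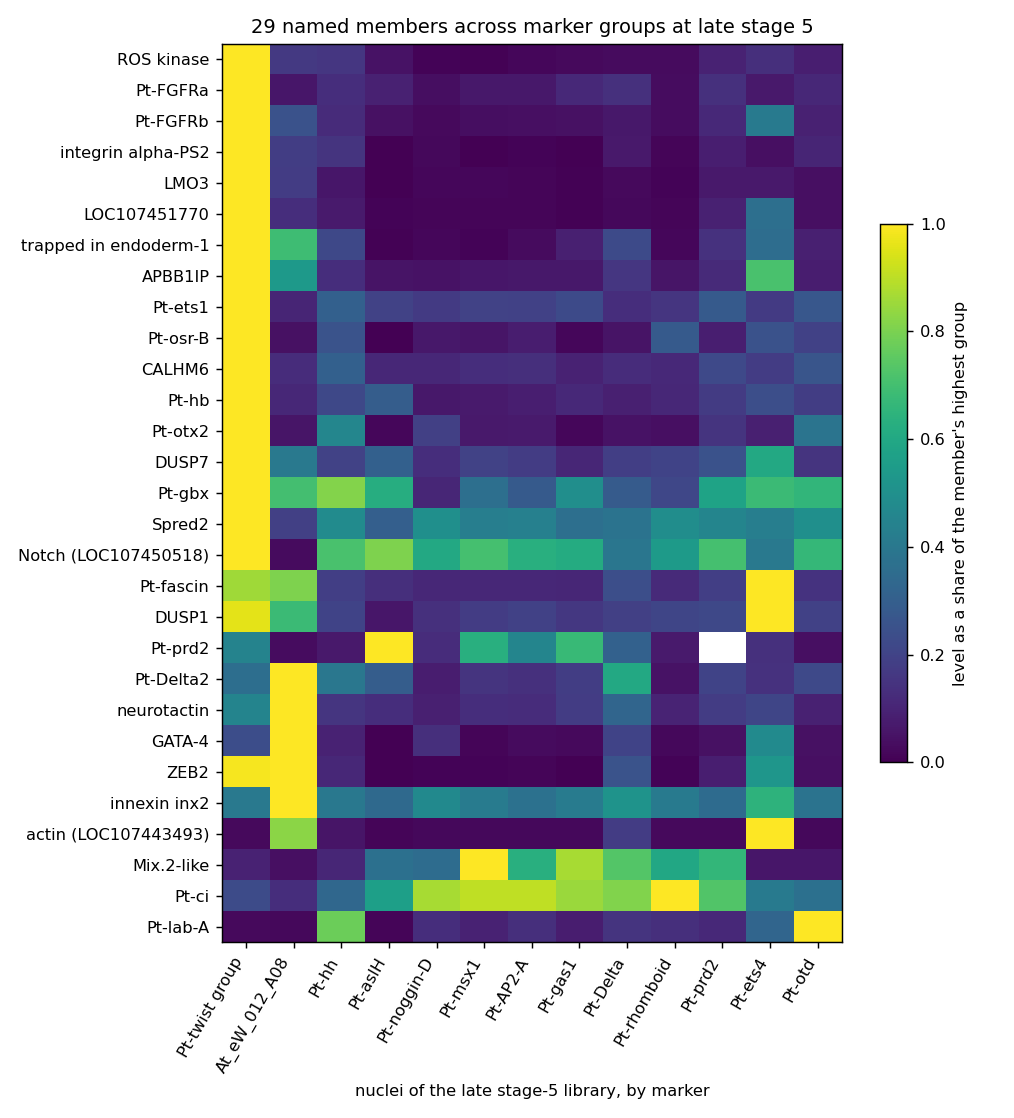
Level of 29 named members (rows) in the Pt-twist group and 12 groups of nuclei without Pt-twist defined by a marker (columns) at late stage 5, each row shown as a share of its highest group; Pt-prd2 was not placed by its own counts (white). The first 17 rows peak in the Pt-twist column, GATA-4 and neurotactin peak in the At_eW_012_A08 column at 11.7 and 13.8 per 10000, and Pt-lab-A peaks in the Pt-otd column at 3.60.

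GATA-4, which in vertebrates acts in heart mesoderm and endoderm, was the member on which nuclei and cells parted. In stage-7 nuclei it stood at 1.18 per 10000 (1.08 to 1.29) in the Pt-twist group, with molecules in 108 of 316 nuclei, against 0.547 in the rest. In the stage-7 cells it had 2 molecules in 75 cells, 0.0203 (0.00245 to 0.0732), against 0.286 in the rest, so the order of group and rest was opposite in the 2 preparations. The authors' methods state the counting of introns for nuclei alone, and the embryos used for cells were slightly younger. The part of either in this was not tested. In nuclei without any At_eW_012_A08 molecule the level was 1.03 in 171 nuclei of the group and 0.150 in the rest, and at late stage 5 it was 3.18 in 37 nuclei against 0.313. Among nuclei without Pt-twist, those with 5 or more At_eW_012_A08 molecules stood at 3.53 at stage 7 and 11.7 at late stage 5, which raises the rest. With the rest limited to at most 4 such molecules the late stage-5 ratio was 5.92 in place of 1.86. The cell ratio of 0.209 became 0.510 with the matrix of all barcodes.

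The summed level of the members in a barcode was set beside its Pt-twist count. In the late stage-5 nuclei and stage-7 cells, which the choice of members did not use, barcodes with 2 or more Pt-twist molecules stood above those with none, without a steady order beyond 2 molecules. In late stage-5 nuclei the median nucleus held 71.2 member molecules per 10000 with no Pt-twist, 255.5 with 1 molecule, 290.9 with 2 and 310.6 with 3 or 4, and the single nucleus with 5 or more held 283.9. In cells the medians were 40.0, 51.4, 102.1, 157.6 and 152.2 for 0, 1, 2, 3 to 4 and 5 or more molecules. In stage-7 nuclei they were 57.8, 58.0, 91.5, 206.4 and 229.0, where the rule itself fixed that nuclei with 3 or more stand above those with none. A single Pt-twist molecule thus went with a high median at late stage 5, a smaller difference in stage-7 cells and almost none in stage-7 nuclei. Summed over barcodes, the level at 1 molecule was 82.0 per 10000 in stage-7 nuclei against 63.3 at 0. In cells it was 63.7 against 46.0. Depth moved with the count at stage 7, where its part was not tested. In nuclei the median was 10261 molecules at a count of 1 and 14684 at 5 or more. Thinned to 3000 molecules a barcode, the median group nucleus had molecules of 28 members at late stage 5 and the rest 12, with 29 and 11 in stage-7 nuclei and 22 and 7 in cells (37 and 17, 51 and 23, and 43 and 15 before thinning). Thinning left out 2 group and 219 rest nuclei at late stage 5 and none at stage 7. None of the 53 late stage-5 group nuclei lay at or below the median of the rest, nor did any of the 75 cells, whereas 25 of the 316 stage-7 group nuclei did.

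**Figure D4:**
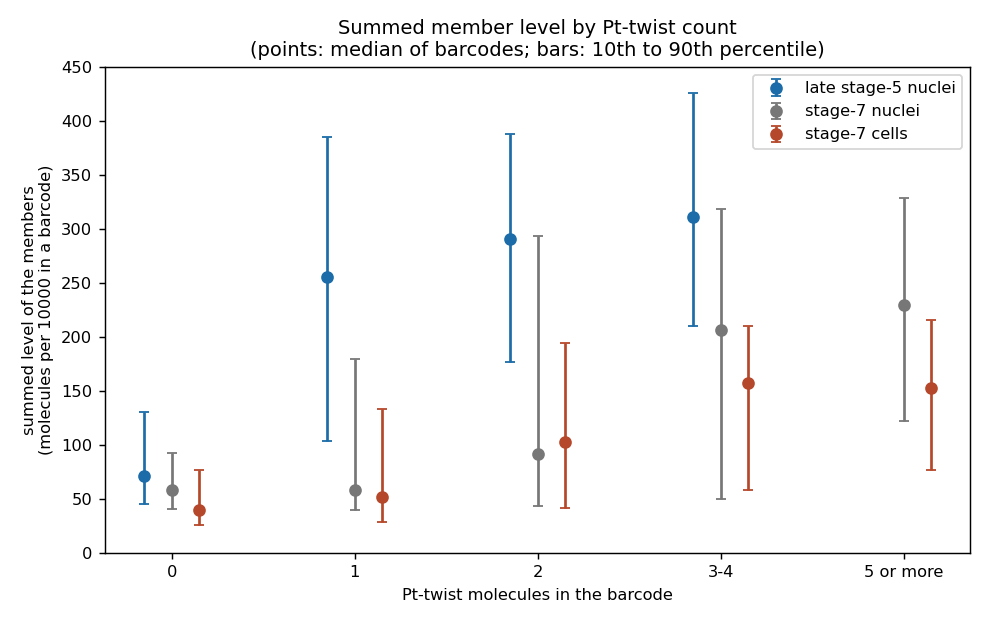
Summed level of the members in a barcode (molecules per 10000) by its number of Pt-twist molecules; points are medians over barcodes and bars run from the 10th to the 90th percentile, and the single late stage-5 nucleus with 5 or more is not drawn. Late stage-5 nuclei reach 255.5 at 1 molecule, where stage-7 nuclei stand at 58.0 and stage-7 cells at 51.4.

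Within the stage-7 Pt-twist nuclei the members differed by mesoderm region. Nuclei with 2 or more molecules of LOC107449287, here the Sox-14-like gene, or of LOC107452693, which lies further back in the order of the stained genes, and with none of the other 3 region genes numbered 33 and 60. The other 2 markers gave 6 and 0 nuclei and were left out. Of 98 members 40 were 2-fold or more higher in the LOC107449287 nuclei and 13 in the LOC107452693 nuclei, with a median ratio of 1.74. Of the 51 members with 100 or more molecules in these nuclei the numbers were 19 (37.3%) and 8 (15.7%), with a median of 1.73. Over 2468 genes with 100 or more molecules in these nuclei the shares were 1.26% and 1.58% and the median 0.981. The members were chosen for a high level in the same Pt-twist nuclei, and a gene high in only part of them can pass that rule. The member shares can be larger for this reason, so nothing is read from them against the background. Pt-twist stood at 3.94 and 4.07 per 10000 in the 2 sets and At_eW_012_A08 at 0.375 and 0.482, levels that the choice of the group limits.

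Trapped in endoderm-1 (LOC107445483) stood at 2.44 per 10000 (1.99 to 2.95) in the LOC107449287 nuclei and at 0.0760 (0.0279 to 0.166) in the LOC107452693 nuclei. APBB1IP stood at 5.75 and 0.646, roundabout homolog 1 at 2.25 and 0.266, ROS kinase at 3.94 and 0.545 and neurotactin at 35.2 and 6.73. The metalloprotease TIKI2 (LOC107443668), a Wnt inhibitor in vertebrates, stood at 1.20 and 0.152. In the other direction LOC107439686 stood at 0.0469 (0.00568 to 0.169) and 1.62 (1.35 to 1.93), the abhydrolase gene LOC107455285 at 0.586 and 3.31, LOC107438548 at 1.43 and 5.32, osr-B at 0.844 and 2.15 and Sox-13 at 2.06 and 5.04. The FGF receptors parted, with Pt-FGFRb at 14.1 and 6.69 and Pt-FGFRa at 8.14 and 11.0. The intervals of each of these members did not overlap between the sets, and for GATA-4 (0.774 and 0.418) they did. These members were picked after their values were seen, so the lack of overlap follows largely from the choice. No share of such members or genes is given for comparison. The intervals cover counting error and leave out variation between nuclei. Regions could not be compared in cells or at late stage 5, where at most 1 of the markers gave 20 barcodes.

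**Figure D5:**
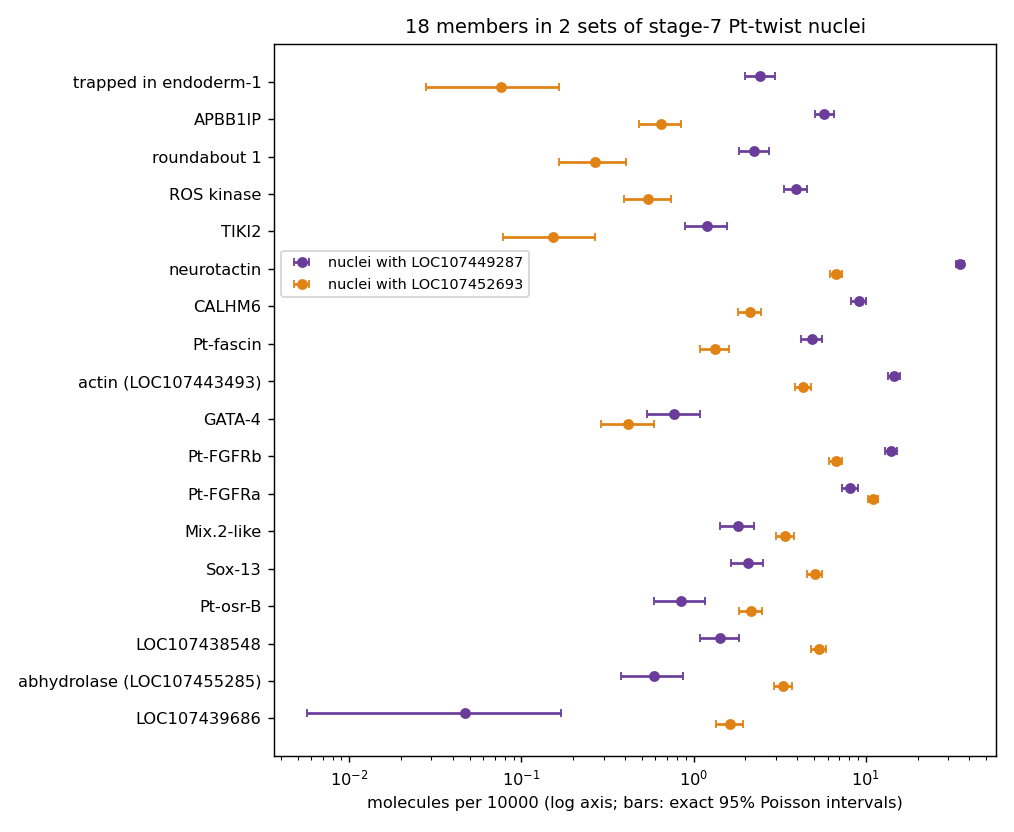
Level of 18 members (molecules per 10000, log axis, with exact 95% Poisson intervals) in stage-7 Pt-twist nuclei with LOC107449287 (33 nuclei, purple) and with LOC107452693 (60 nuclei, orange). Trapped in endoderm-1 lies far to the right in purple (2.44 against 0.0760) and LOC107439686 far to the right in orange (1.62 against 0.0469).

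Of the 100 members 96 were found in the RefSeq gene table of a later assembly of this species, and 5 pairs of them were neighbours there. Pt-lab-A, LOC107455688 and Pt-pb-A lay side by side, and the first pair were both low in the late stage-5 group (0.103 and 0.287) and highest in Pt-otd nuclei. Integrin alpha-PS2 lay beside LOC107437680, with late stage-5 ratios of 12.5 and 4.54. Pt-prd2 lay beside LOC107455285, and both were highest in the Pt-aslH nuclei at late stage 5, for Pt-prd2 with the group defined by its own counts left out. LOC107450676 lay beside LOC122268251, and neither had a molecule in the late stage-5 group. At stage 7 both lay with the LOC107449287 nuclei, the former at 0.703 per 10000 against 0.0253 in LOC107452693 nuclei and the latter at 0.492 against no molecule. Whether reads of a gene were counted for its neighbour was not tested.

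Lists of pathway genes were matched by product name among the 1329 genes that the study's tables name, so they cover cluster markers more than other genes. All 3 FGF pathway members passed 2-fold at late stage 5 and in cells and Pt-fgf8 was lower, so 3 of 4 listed genes were higher and 1 lower. Of 6 receptor tyrosine kinases 4 were higher and 1 lower at late stage 5, and Pt-eph (LOC107451211), an ephrin receptor, was the 1 outside the members (2.49). Of 11 Notch pathway genes 2 were higher and 2 lower at late stage 5. Among them the 2 Notch genes and the 2 Delta genes parted, since the Notch gene LOC107450518 and Pt-Delta2 were members (1.92 and 1.84) whereas Pt-Notch (LOC107442769, 0.206) and Pt-Delta (LOC107456525, 0.0954) were lower. Of 61 homeobox and other patterning factors 18 were higher and 24 lower at late stage 5, with a median of 0.653. None of the 8 genes of the BMP and TGF-beta pathway was higher and 5 were lower, and of 10 Wnt genes 5 were lower and 2 higher, namely Pt-wnt8 (LOC107453612, 3.87) and Wnt-11 (LOC107449252, 2.48). Of 10 genes of the extracellular matrix and its receptors 2 were higher and 4 lower, and of 21 guidance and adhesion genes 3 and 4. The Hedgehog pathway had 0 higher and 2 lower of 5, cell cycle genes 0 and 2 of 17, and mesoderm and muscle regulators other than Pt-twist 0 and 3 of 5. The latter included the Snail homolog LOC107443696 (0.140), whose Drosophila counterpart acts with twist in the mesoderm. Neither the 2 muscle structure genes nor the 6 cytosolic ribosomal protein genes had any past 2-fold, and their medians were 1.09 and 1.06. These shares stand beside the 2.17% and 8.06% of all genes.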

How the data were processed

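Single cells and nuclei were captured in microwells and their molecules counted by molecular identifiers. The authors deposited counts per gene and barcode, raw and without normalization, and the filtered matrices used here keep barcodes within their limits on molecules and genes. Per the submitters' processing notes the tools included STAR 2.5.2b and Seurat 4.1.1. Reads were aligned by the authors to the assembly Ptep_3.0, and intronic reads were counted for nuclei under a changed annotation, which the methods state for nuclei alone, so a level in nuclei and a level in cells are not the same quantity, and ratios were taken within a library. Doublets were limited only by the upper limit on molecules. The late stage-5 matrix has no labelled sample in the series and was taken as named in the study's methods. Counts were summed over the barcodes of a group with Python 3.11.15, numpy 2.4.6, scipy 1.17.1, pandas 2.3.3 and matplotlib 3.10.9, divided by the group's molecules and multiplied by 10000. Because a level is a share of the molecules, it does not give molecules per cell. Ratios had 0.05 added above and below, and a ratio of 2 or more, or 0.5 or less, was counted. A level without a molecule was limited at 3 molecules. The calculation was tested on simulated data.

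The members and lists were chosen with earlier results of these data known, and lists were corrected by name after the values had been seen. Named genes were those at the ends of the rankings in each library and between stages, transcription factors and receptors of the lists, the genes beside the 100th place and the marker genes. Neurotactin and innexin inx2 in the stage comparison, the Ras and actin regulators, other surface proteins and the genes named by region or neighbourhood were chosen after their values were seen. Product names came from the study's tables, and an ID without a name there is given alone. Neighbours were read by ID from the RefSeq gene table of assembly CAS_Ptep_4.0. No coordinates or sequences are given, since that assembly is not the build of the files.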

Additional observations from a re-analysis of the deposited data

Results flagged for a closer look

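Across libraries 4 members with a stage-7 nucleus ratio of 2 or more lay on the other side in a library that the choice did not use. With 1 library each, none of these differences was tested. The Mix.2-like homeobox gene (LOC107440707) had a ratio of 0.325 in late stage-5 nuclei and 3.66 in stage-7 nuclei, and the former was 0.576 with a Pt-twist minimum of 1 and 0.601 with 0.5 added. Pt-lab-A (LOC107455686) had 0.103 at late stage 5 and 2.92 in stage-7 nuclei. The former rests on 3 molecules and was 0.500 with a Pt-twist minimum of 1. LOC107455688, its neighbour, had 0.287 and 2.32. GATA-4 (LOC107439682) had 0.209 in stage-7 cells and 2.07 in stage-7 nuclei.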

How the results depend on the processing

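No paired analysis was possible because each condition was 1 library, and no library could be left out. Adding 0.5 in place of 0.05 gave 31 members past 2-fold at late stage 5 (median 1.47) in place of 48 (1.99), 27 in cells (1.62) in place of 81 (3.24) and 15 with more at stage 7 in place of 32, as a larger addition must for low genes, and adding 0.01 gave a median of 4.25 in cells. The 50 highest members gave 29 of 49 at late stage 5 (3.18) and 46 of 50 in cells (4.42), beside 48 of 99 and 81 of 100. Of the same 49 members 21 had more at stage 7, beside 32 of 99. In the Pt-twist group 25 were highest, beside 40 in the full list. These counts come from fewer members, so a smaller count is not a smaller share. Members chosen with a minimum of 300 molecules gave 31 (1.36) at late stage 5 and 42 (1.76) in cells. A Pt-twist minimum of 1 gave a median of 2.53 in cells and 20 with more at stage 7, for which the cause was not tested. Thinned to 3000 molecules a nucleus, the choice kept 45 of the 100 members, the number that still had 100 molecules. Of the alternatives for counts and medians 75 stayed within their limits and 19 did not, and for named members the numbers were 142 and 12. The limits were a set fold of the main value for counts and an interval for medians. For named members they were the same call at 2 and 0.5. A reversal could be recorded only for medians and for named members past 2-fold, and 0 were. The counts could not reverse by this rule. A Pt-twist minimum of 2 was already in use at late stage 5. The alternatives with 3 or more Pt-twist molecules at late stage 5 (20 nuclei, 48 members, 38 with more at stage 7), without shared barcodes (49 members) and with 100 or more molecules (45 of 90 at late stage 5 and 54 of 63 in cells) were chosen after seeing the data. Depth limits the 53 late stage-5 nuclei most, where 8 members had no molecule.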

Other observations

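Some barcodes without Pt-twist had as high a summed member level as the median barcode of the group. At late stage 5 these were 53 of 4689 nuclei (1.13%, exact 95% binomial interval 0.848% to 1.48%, median 5160 molecules), as many nuclei as the Pt-twist group itself held. In stage-7 nuclei there were 27 of 5045 (0.535%, 0.353% to 0.778%, median 8472 molecules) and in stage-7 cells 11 of 667 (1.65%, 0.826% to 2.93%, median 5667 molecules). In each library their median depth was below that of the rest (5402, 10285 and 8504 molecules), and the part of depth in the absence of a Pt-twist molecule was not tested.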
